A study of Mus musculus with 6 samples.

Results

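The guanylate-binding proteins (GBPs) and the immunity-related GTPases (IRGs) are 2 families of interferon-inducible GTPases, here represented by 10 genes chosen by symbol: Gbp2, Gbp3, Gbp5, Gbp7, Igtp, Irgm1, Irgm2, Iigp1, Ifi47 and Tgtp1. All 10 were found among the 40773 gene symbols counted, and 8 of them passed the filter on low counts that left 11498 genes for testing. The cells were RAW264.7, a single transformed mouse macrophage line, so no part of the comparison rests on different animals. One group, called LPS, received lipopolysaccharide at 100 ng/mL for 24 h. The other group, called LPS plus 3A2, received the same lipopolysaccharide for the same 24 h together with 3A2, an antibody that neutralizes the membrane protease MMP14, at 50 µg/mL. Each group held 3 cultures, described as biological triplicates, and each culture gave 1 library of ribosomal-RNA-depleted total RNA. Both groups thus carried the lipopolysaccharide, and cells without it, or with an unrelated antibody, were not analysed here.

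GBPs and IRGs are made in large amounts when interferon-γ or type I interferon acts on a macrophage. GBPs are large dynamin-like GTPases that coat bacteria, parasite vacuoles and free lipopolysaccharide, and they help the cytosolic lipopolysaccharide receptor caspase-11 to act. IRGs are smaller GTPases that fall into effectors, which load onto the vacuole membrane and break it, and regulators of the Irgm group, which sit on the cell's own membranes and keep the effectors in their inactive state. Both kinds of gene are switched on by transcription factors that interferon receptors activate. In macrophages lipopolysaccharide induces them mainly through interferon-β that the cells release themselves.

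The upstream sequences of 6 members are shown because the bases near the start site are where interferon-activated factors are known to bind, and because 2 of them are near copies. They come from RefSeq promoter entries of the mouse assembly GRCm38.p6, which were matched to 9 of the 10 members by symbol. The promoter of Iigp1 was not analysed here. The stretches just before the start site of each entry are printed 5′ to 3′ on the strand of the gene. For Irgm2 and Gbp7 the bases just after that site were not found in a GENCODE M21 transcript of the gene, so the start sites of those 2 entries are uncertain. Irgm1 runs over chr11:48871421-48871530 on the minus strand. All others lie on the plus strand: Irgm2 at chr11:58214867-58214976, Igtp at chr11:58199446-58199555, Gbp2 at chr3:142620553-142620662, Gbp7 at chr3:142530226-142530335 and Gbp5 at chr3:142496824-142496933.
Irgm1: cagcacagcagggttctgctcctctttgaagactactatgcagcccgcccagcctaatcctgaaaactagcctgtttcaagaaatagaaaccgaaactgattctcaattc
Irgm2: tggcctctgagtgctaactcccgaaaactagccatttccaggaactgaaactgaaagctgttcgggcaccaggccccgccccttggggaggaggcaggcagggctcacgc
Igtp: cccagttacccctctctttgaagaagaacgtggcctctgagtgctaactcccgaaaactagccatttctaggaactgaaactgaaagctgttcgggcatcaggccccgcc
Gbp2: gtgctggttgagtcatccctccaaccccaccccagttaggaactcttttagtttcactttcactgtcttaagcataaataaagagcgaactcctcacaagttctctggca
Gbp7: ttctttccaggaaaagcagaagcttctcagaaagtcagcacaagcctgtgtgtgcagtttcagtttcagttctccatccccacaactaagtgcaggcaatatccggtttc
Gbp5: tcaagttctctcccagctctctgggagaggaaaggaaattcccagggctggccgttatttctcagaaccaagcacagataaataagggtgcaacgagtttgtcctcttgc

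The Igtp and Irgm2 stretches, slid along each other without gaps, were identical at 78 of 80 bases (97.5%) where they matched best. Both genes are regulators of the Irgm group.

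Library totals ran from 6060732 to 7432553 counts, with 14998 to 15309 genes counted per library, and levels are given in CPM, the count scaled to a common library total by the TMM method. Over all 11498 genes, edgeR's quasi-likelihood test called 0 at a Benjamini-Hochberg adjusted p under 0.05, DESeq2 called 0 and limma-voom 0, while 749 genes (6.51%) had an unadjusted edgeR p under 0.05. Mitochondrial genes took 4.86% to 7.48% of the counts with LPS and 5.2% to 9.94% with LPS plus 3A2, with the highest share in LPS plus 3A2 replicate 3. Macrophage markers were present, with Lyz2, Cd14, Csf1r and Cd68 the most abundant and only Mrc1 of 9 under the filter. Their sum was 7070 to 7130 CPM with LPS and 6160 to 6600 CPM with LPS plus 3A2. Lyz2 was the largest part of that sum, with a mean of 4337 CPM with LPS and 3780 CPM with LPS plus 3A2. Of the 8 tested macrophage markers, 7 lay below no change and 1 above, and none was called. All antibody libraries lay below all LPS libraries for 3 of them, against 6.46% of all genes. The part of this sum in the results below was not tested. Of 5 epithelial markers 5 had no count, of 8 lymphocyte markers 6 had none, and the fibroblast list reached no more than 0.439 CPM per library. Markers of neutrophils, mast cells and dendritic cells added up to 5.7 to 7.76 CPM, nearly all of it S100a8. In such bulk RNA fewer expressing cells and less RNA per cell cannot be told apart.

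Of the 10 GTPase genes, none was called between the groups over all genes (0% of all genes tested were called by the same rule). Of the 8 tested members 4 lay above and 4 below no change, with a median log2 fold change of 0.00088, against 0.0017 over all genes tested, where 49.6% lay below 0. The median absolute log2 fold change was 0.081 for the members and 0.095 for all genes. For 7 of 8 members, and for 79.5% of all genes, the 95% interval was bounded by 1.5-fold up and down. The exception was Gbp5, the least abundant tested member. Among the members, Irgm1, Gbp2 and Gbp5 had the lowest fold changes.

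**Figure D1:**
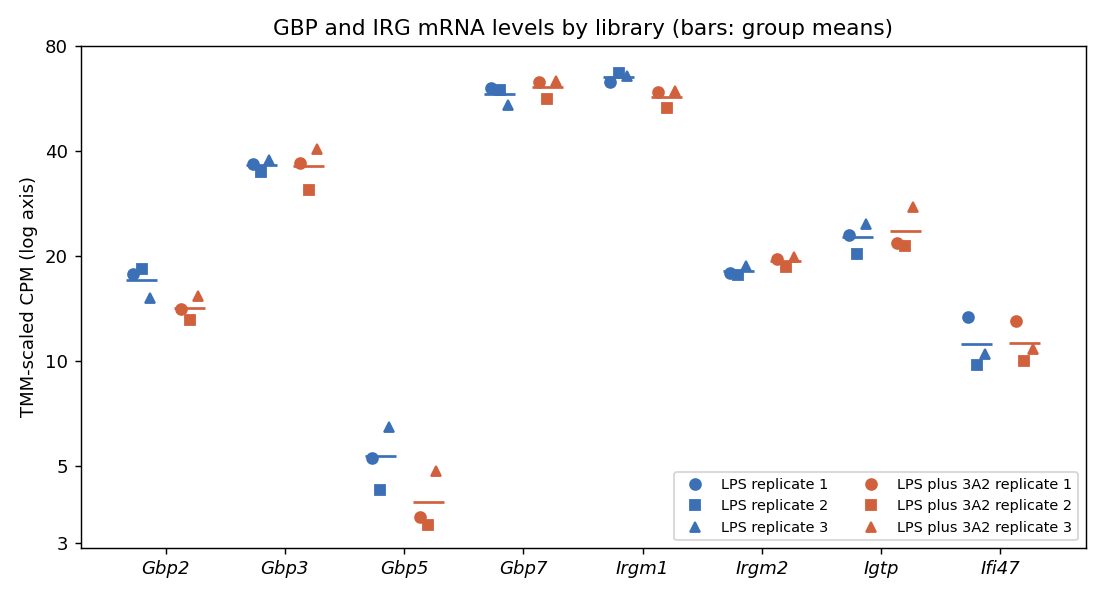
TMM-scaled CPM (log axis) of the 8 tested members in each of the 6 libraries, with marker shape giving the replicate number, blue for LPS, orange for LPS plus 3A2 and bars for the group means. The groups separate only for Irgm1 (63.1 to 67 CPM against 53.1 to 59.6 CPM), and in the orange group the square of replicate 2 is lowest for every gene.

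Irgm1, the regulator that in mice guards the endolysosomal and Golgi membranes and whose loss weakens resistance to many intracellular microbes, was the only member whose groups did not overlap. Its 3 LPS libraries held 63.1, 67 and 65.7 CPM, against 59.1, 53.1 and 59.6 CPM in the antibody libraries. All 3 libraries with the antibody thus lay below all 3 without it. The means were 65.3 ± 1.98 and 57.3 ± 3.61 CPM (SD, n = 3), which gave 0.876-fold (95% interval 0.776 to 0.989) and a log2 fold change of -0.19 (SE 0.084). The unadjusted edgeR p was 0.0345, which ranked 526 among 11498 genes, and the adjusted p was 0.748, so the difference did not pass. Groups failed to overlap for 12.3% of all genes tested, 6.46% with the antibody group lower and 5.84% with it higher, and 1 of 8 members is close to that background. At an unadjusted p under 0.05, 3.09% of all genes lay lower and 3.43% higher, and of the members Irgm1 alone lay lower and 0 higher. Of the 100-base stretches of Irgm1, 0% occurred letter for letter in transcripts of another gene in GENCODE M21, while copies with mismatches were not searched for.

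Irgm2, a second regulator found mainly on the Golgi, lay slightly higher with the antibody. Levels of 17.9, 17.7 and 18.7 CPM with LPS stood against 19.6, 18.6 and 19.9 CPM with LPS plus 3A2. The groups overlapped in that LPS replicate 3 exceeded LPS plus 3A2 replicate 2. The fold change was 1.07 (95% interval 0.894 to 1.28, edgeR adjusted p = 0.892), at 18.1 ± 0.567 and 19.4 ± 0.661 CPM (SD, n = 3). Igtp, also called Irgm3 and located on the endoplasmic reticulum and lipid droplets, measured 23, 20.2 and 24.7 CPM with LPS and 21.7, 21.4 and 27.5 CPM with LPS plus 3A2. One antibody library, replicate 3, was the highest of the 6, and the other antibody libraries fell inside the LPS range. Its fold change was 1.04 (0.861 to 1.26, adjusted p = 0.948). Igtp and Irgm2 are neighbours on the same strand whose annotated exons share 162 bases in GENCODE M21, and 5.16% and 3.01% of their 100-base stretches occur in transcripts of the other gene, so a small part of their reads cannot be assigned.

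Among the GBPs, Gbp2, which loads onto bacteria and parasite vacuoles and carries a lipid anchor, measured 17.7, 18.3 and 15.2 CPM with LPS and 14.1, 13.1 and 15.4 CPM with LPS plus 3A2. The groups overlapped by a narrow margin, between LPS replicate 3 and LPS plus 3A2 replicate 3. The means were 17.1 ± 1.66 and 14.2 ± 1.14 CPM (SD, n = 3), or 0.828-fold (95% interval 0.675 to 1.02) with an unadjusted p of 0.0677 and an adjusted p of 0.757 by edgeR. Gbp5, which promotes assembly of the NLRP3 inflammasome, had the lowest fold change of the members with all libraries, 0.739 (0.506 to 1.08), and also the widest interval among them. Its counts were 36, 32 and 42 with LPS and 22, 22 and 29 with LPS plus 3A2, or 5.27, 4.28 and 6.45 CPM against 3.57, 3.39 and 4.84 CPM. LPS plus 3A2 replicate 3 lay above LPS replicate 2, so the groups overlapped. The edgeR p was 0.111 unadjusted and 0.794 adjusted, so a difference of this size did not pass at these counts. With 1 library left out, the log2 fold change of Gbp5 moved from -0.44 to between -0.28 (without LPS replicate 3) and -0.61 (without LPS plus 3A2 replicate 3). Without LPS replicate 3, Gbp2 was lower than Gbp5, at -0.35.

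Gbp3 and Gbp7, which lie next to each other in the genome, had fold changes near 1. Gbp3 measured 36.6, 34.9 and 37.6 CPM with LPS and 37, 30.9 and 40.4 CPM with LPS plus 3A2. Antibody replicate 2 lay below the LPS range, replicate 3 above it and replicate 1 inside it. The fold change was 0.992 (95% interval 0.847 to 1.16, edgeR adjusted p = 0.987). Gbp7, which supports oxidative and autophagic killing of bacteria, measured 60.6, 59.8 and 54 CPM with LPS and 63, 56.2 and 63.3 CPM with LPS plus 3A2. LPS replicate 3 was the lowest library and the groups overlapped. Its fold change was 1.04 (0.92 to 1.18, adjusted p = 0.906). Annotated transcripts of other genes contain 10% of the 100-base stretches of Gbp7, mostly the overlapping model Gm43802 on the same strand.

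Among the effector IRGs, Ifi47 was the only one of 3 that passed the filter, with 13.3, 9.77 and 10.4 CPM with LPS and 13, 10 and 10.9 CPM with LPS plus 3A2. Replicate 1 was highest in each group, and the groups overlapped fully. The fold change was 1.01 (95% interval 0.787 to 1.3, edgeR adjusted p = 0.991). Iigp1, the best-studied effector, which builds up on Toxoplasma vacuoles, had counts of 1, 1 and 0 with LPS and 0, 0 and 1 with LPS plus 3A2. Tgtp1, another effector of the same vacuole coat, had counts of 3, 0 and 0 and of 0, 0 and 1. Pooled over a group, Iigp1 stood at 0.0966 CPM with LPS (exact 95% interval 0.0117 to 0.349) and 0.0531 CPM with LPS plus 3A2 (0.00135 to 0.296), and the ratio of 0.55 had a counting interval of 0.00933 to 10.6. For Tgtp1 the values were 0.145 CPM (0.0299 to 0.423) and 0.0531 CPM (0.00135 to 0.296), with a ratio of 0.367 and an interval of 0.00699 to 4.57. These intervals cover counting error only. A library with 0 counts allows up to 3 counts, or 0.404 to 0.495 CPM. The pooled levels and this limit were scaled to raw library totals, without the TMM factor. A difference in either gene was not detectable at this depth. For Tgtp1, 73.1% of its 100-base stretches also occur in another gene, chiefly its copy Tgtp2, and reads shared by such copies can be lost or split. Tgtp2 itself had 9 counts over the LPS libraries and 4 over the others.

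**Figure D2:**
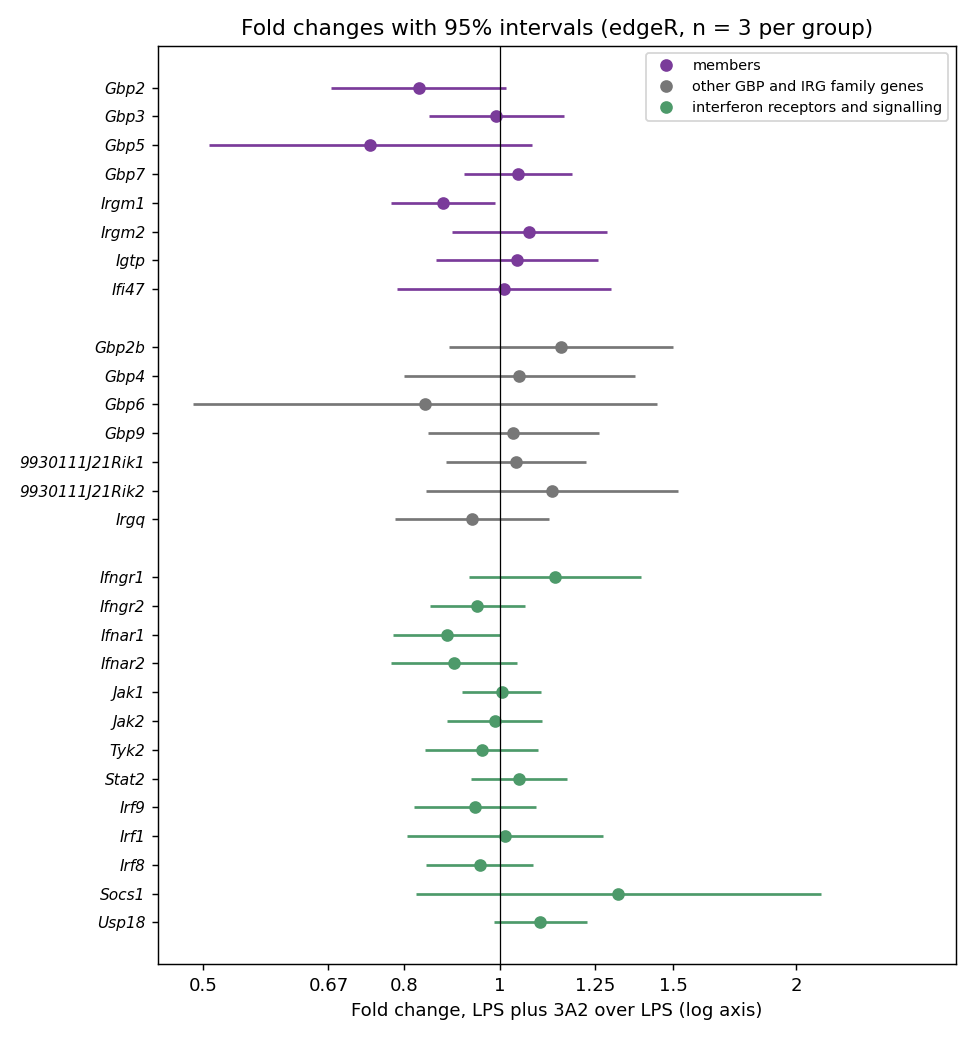
Fold change of LPS plus 3A2 over LPS (x axis, log scale) with 95% intervals from edgeR, n = 3 per group, for the tested members (purple), the other tested GBP and IRG family genes (grey) and 13 interferon receptor and signalling genes (green). The interval of Irgm1 alone leaves out 1 (0.776 to 0.989), and no gene shown passed the adjusted threshold.

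To compare levels between genes, CPM was divided by the length of all annotated exons in GENCODE M21, in kilobases (kb). On this scale Irgm1 at 11.2 ± 0.341, Igtp at 11.2 ± 1.13, Gbp3 at 11.1 ± 0.418 and Gbp7 at 10.4 ± 0.64 CPM per kb (SD, n = 3, LPS) were the highest. Their ranges overlapped except that Irgm1 (10.9 to 11.5 CPM per kb) lay just above Gbp7 (9.63 to 10.8 CPM per kb). Gbp2 followed at 6.79 ± 0.66 CPM per kb, below every library of those 4 genes. Irgm2 at 4.9 ± 0.154 and Ifi47 at 4.52 ± 0.765 CPM per kb came next and did not differ beyond their spread. Gbp5 stood far lower at 0.804 ± 0.163 CPM per kb, and Tgtp1 and Iigp1 at 0.0457 and 0.016 CPM per kb on a handful of counts. With LPS plus 3A2 the order of the top group was Igtp at 11.7, Gbp3 at 11.1, Gbp7 at 10.8 and Irgm1 at 9.86 CPM per kb. In that group Gbp2, at 5.64 ± 0.453 CPM per kb, overlapped with Irgm2 at 5.25 ± 0.179. The regulators, 3 of the 4 GBPs and Ifi47 were thus readily counted in both groups, while the other effector IRGs, Iigp1 and Tgtp1, were near the detection limit. Exon lengths stand in for the transcripts actually made, which were not measured.

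LPS plus 3A2 replicate 2 was the lowest antibody library for 8 of 8 tested members and the lowest of all 6 libraries for 4 of them, Gbp2, Gbp3, Gbp5 and Irgm1. Over all genes tested, that library was the lowest of its group for 34.9%. LPS plus 3A2 replicate 3 was the highest of its group for 7 of 8 members, against 38% of all genes. Among the other 7 tested genes of these families, LPS plus 3A2 replicate 2 was lowest in its group for 2 of 7. Summed over the 10 members the levels were 238, 232 and 233 CPM with LPS and 231, 207 and 242 CPM with LPS plus 3A2, so the lowest and the highest sum both came from antibody libraries. The sums of the 4 GBPs were 117 ± 3.49 and 115 ± 10.4 CPM, and those of the 6 IRGs 117 ± 2.44 and 112 ± 7.7 CPM (SD, n = 3). The SD was thus larger among the antibody libraries in both families. LPS plus 3A2 replicates 2 and 3 were also the least alike pair of libraries over all genes (chi-square over its degrees of freedom 23.4, against 3.47 to 8.59 among the LPS libraries), and their mitochondrial shares were 5.2% and 9.94%. The part of these differences in the spread of the members was not tested. Leaving out LPS plus 3A2 replicate 2 moved the log2 fold change of Irgm1 from -0.19 to -0.14 and that of Gbp2 from -0.27 to -0.22, and leaving out replicate 3 moved them to -0.22 and -0.33.

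**Figure D3:**
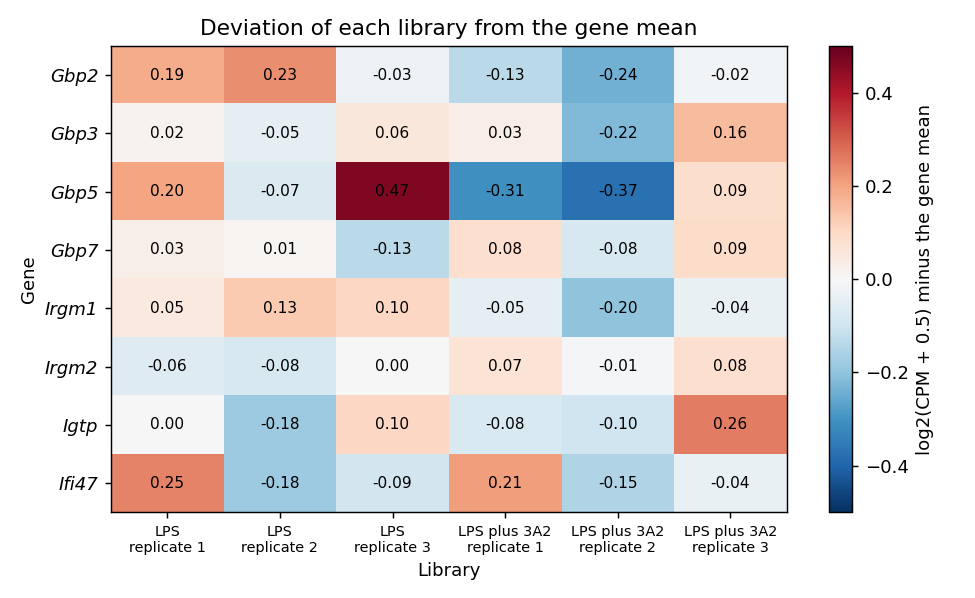
Deviation of log2(CPM + 0.5) from the mean of each gene over the 6 libraries, with libraries on the x axis, the 8 tested members as rows, and the value printed in each cell. The column of LPS plus 3A2 replicate 2 is below 0 for every member, from -0.37 for Gbp5 to -0.01 for Irgm2.

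The genes whose library pattern was most like that of the members are not GTPases of these families. Likeness was the root mean square difference between a gene's deviations, in log2(CPM + 0.5), and the mean deviation of the 8 tested members over the 6 libraries. Of 11490 other genes the nearest 5, picked for that nearness, were Exoc8 at 0.0175, Exoc1 at 0.019, Taf3 and Smg1 at 0.0197 each and Etaa1 at 0.021, against a median of 0.158. Exoc8 and Exoc1 encode subunits of the exocyst, which tethers secretory vesicles, Taf3 a subunit of the general transcription factor TFIID, Smg1 a kinase of nonsense-mediated decay and Etaa1 an activator of the ATR kinase. The distance from the members' own mean ran from 0.0539 for Gbp3 to 0.225 for Gbp5.

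Other genes of both families came from a list of 19, which also held the related gene Gvin1. Of the 19, 18 were among the symbols counted and 7 passed the filter. None was called, 5 lay above no change and 2 below, and the median log2 fold change was 0.055. Gbp2b, the mouse counterpart of human GBP1, had the smallest p of this list. Its levels were 9.67 ± 2.31 CPM for LPS and 11.2 ± 0.5 CPM for LPS plus 3A2 (SD, n = 3), or 1.15-fold (95% interval 0.887 to 1.5, edgeR adjusted p = 0.842). The most abundant was the IRG-like gene 9930111J21Rik1 at 28.5 ± 1.18 and 29.6 ± 3.2 CPM, or 1.04-fold (0.883 to 1.22). Gm12250, which encodes the bacterium-targeting IRG known as Irgb10, had 0 counts over the LPS libraries and 1 over the antibody libraries.

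Upstream, the interferon receptors, their kinases and their factors were expressed, while Ifng and Ifnb1, the interferon genes on the list, were at or near 0. Ifng had 0 counts in all libraries. Ifnb1, which encodes interferon-β, had 4 counts over the LPS libraries and 2 over the antibody libraries. Pooled without the TMM factor, Ifnb1 stood at 0.193 CPM (exact 95% interval 0.0526 to 0.495) against 0.106 CPM (0.0129 to 0.384). Of 16 genes in this list 14 were tested, 7 lay above no change and 7 below, the median log2 fold change was -0.0057 and none was called. Ifnar1, a chain of the type I interferon receptor, had the smallest p. Its levels of 68.1, 60.3 and 69.7 CPM with LPS stood against 57.6, 56 and 61.3 CPM with LPS plus 3A2, a fold change of 0.883 (95% interval 0.78 to 1, edgeR adjusted p = 0.748), and the groups overlapped. Jak1, the kinase shared by both receptor types and the most abundant of the list, measured 197 ± 1.77 and 197 ± 8.37 CPM, or 1-fold (0.915 to 1.1). The interferon response factor gene Irf1 stood at 1.01-fold (0.804 to 1.27) and was chosen after its value was seen.

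No gene was called in 4 further lists of processes that involve these GTPases. The conjugation of ATG8 proteins to membranes, which places IRGs and GBPs on vacuoles, had 10 of 10 genes tested, with 4 above no change and 6 below and a median log2 fold change of -0.039. Atg7, the activating enzyme of that reaction, measured 46.9 ± 2.54 CPM with LPS and 42.7 ± 0.996 CPM with LPS plus 3A2 (SD, n = 3), or 0.91-fold (95% interval 0.797 to 1.04, edgeR adjusted p = 0.813). Its antibody libraries all lay below its LPS libraries, a separation in this direction that 6.46% of all genes had. Gabarap, an ATG8 protein, stood at 1.06-fold (0.95 to 1.19). Of 8 genes for the lipid anchors that hold GBPs and some IRGs on membranes, 5 lay above no change and 3 below, with a median of 0.042. Zmpste24, a protease that trims prenylated proteins, stood at 1.11-fold (0.975 to 1.27), and Nmt1, an N-myristoyltransferase, at 1.01-fold (0.898 to 1.13).

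The caspase-11 and inflammasome list had 8 of 9 genes tested, 4 above no change and 4 below, with a median log2 fold change of -0.0039. Il18, which encodes a cytokine matured by caspase-1, measured 34.1, 24.1 and 26.7 CPM with LPS and 37, 28.5 and 38.2 CPM with LPS plus 3A2. The groups overlapped, and the fold change of 1.22 (95% interval 1 to 1.49) had an adjusted p of 0.748 by edgeR. Nlrp3, the sensor of the inflammasome and most abundant of the list, stood at 0.968-fold (0.883 to 1.06). Pycard, which encodes the adaptor ASC that RAW264.7 cells are known to lack, had no count in any library. Among 7 genes of ubiquitin tagging and its cargo receptors 2 lay above no change and 5 below, with a median of -0.054. Traf6, a ubiquitin ligase recruited to vacuoles, measured 40.4, 39.3 and 36.7 CPM with LPS and 44, 44 and 50.6 CPM with LPS plus 3A2. All 3 antibody libraries lay above all 3 others, as they did for 5.84% of all genes, and the fold change was 1.19 (1.03 to 1.37) with an adjusted p of 0.719. Rnf213, a giant ubiquitin ligase and the most abundant of the list, measured 1179 ± 8.81 and 1137 ± 11.9 CPM, or 0.964-fold (0.891 to 1.04), and here all 3 antibody libraries lay below the others, as for 6.46% of all genes.

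**Figure D4:**
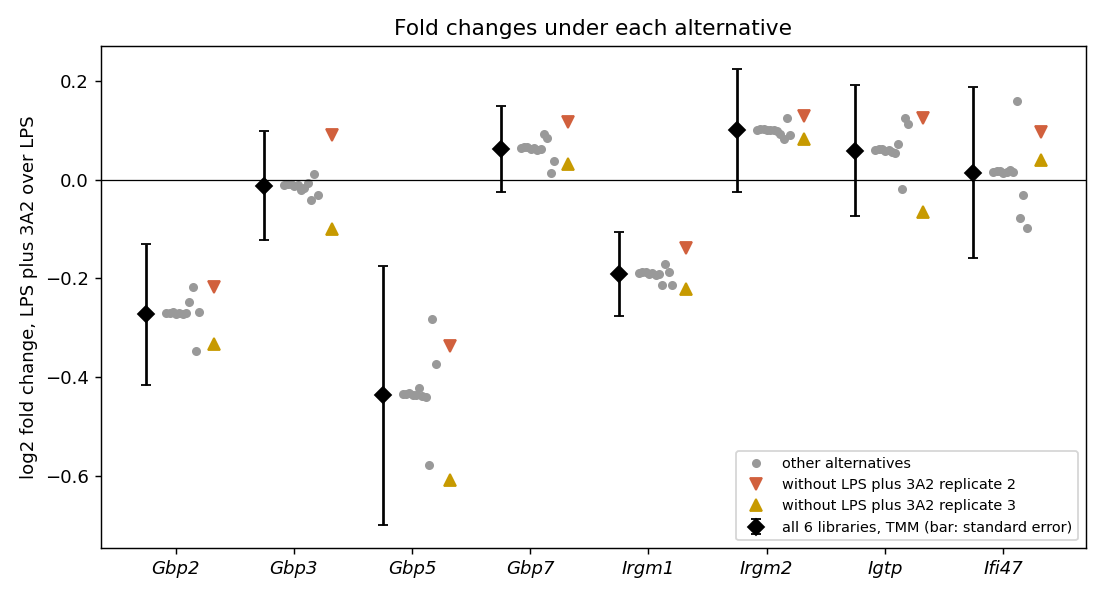
Log2 fold change of LPS plus 3A2 over LPS for the 8 tested members with all 6 libraries (black diamonds, bars give the standard error) and under 13 alternatives (other symbols), with triangles for the fits without LPS plus 3A2 replicate 2 (orange) and replicate 3 (yellow). Gbp2, Gbp5 and Irgm1 stay below 0 in all of them and Gbp7 and Irgm2 above it, while Gbp3, Igtp and Ifi47 cross it.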

How the data were processed

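RNA was measured in 6 cultures, 3 per group, grouped by their titles. The authors deposited raw read counts per gene symbol, 1 column per library, with no pooling. HISAT2 and edgeR, with no role or version, and the human build GRCh38 are named per the submitters' processing notes, while 39282 of 40773 symbols match RefSeq genes of mouse GRCm38.p6. Which program counted the reads, with what annotation and strand setting, is not given in the sources used here, so antisense and overlapping genes are uncertain, and coordinates are those of the RefSeq table. No entry lacked a gene name (0). Cells typed into unnamed columns were not used.

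Counts were filtered with filterByExpr, scaled by TMM and tested with the robust quasi-likelihood F test of edgeR 4.0.16 (R 4.3.3), two-sided, with Benjamini-Hochberg adjustment over all 11498 genes and a threshold of 0.05. Intervals are at the 95% level, and the biological coefficient of variation was 0.0768. Alternatives used DESeq2 1.42.0, limma 3.58.1, other scalings and filters, a replicate block and leaving out each library. On simulated counts modelled on these libraries edgeR called 90.3% of 2-fold and 68.3% of 1.5-fold changes among 200 changed genes; fewer changed genes would lower these shares. No libraries agreed within sampling noise (chi-square per degree of freedom 3.47 to 23.4).

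The members and gene lists were chosen with earlier results of these data known. All members are named, and of each other list the gene with the smallest p and the most abundant tested gene. Ifng, Ifnb1, Gm12250, Tgtp2, Pycard and Irf1, the marker genes and the Gvin genes are not covered by it and were picked with their values already seen. A single gene of the signalling list is not reported here.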

Additional observations from a re-analysis of the deposited data

How the results depend on the processing

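No member passed an adjusted p of 0.05 under any of the 13 alternatives. The count of genes that passed, 0 as reported, was 16 without a filter on low counts, 1 with the replicate number as a block, and 0 to 25 when 1 library was left out, the highest without LPS plus 3A2 replicate 2; the members called were 0 in each. The cause was not tested. Same-numbered libraries did not deviate together over all genes (correlation -0.0102, 0.0253 and -0.163). Such correlations cannot exclude a pairing, so whether the numbers pair cultures is not known. With that block the log2 fold change of Irgm1 was -0.192 and its adjusted p 0.921; the number of members whose groups do not overlap has no blocked value. That number was 1 to 3 with 1 library left out, where fewer libraries overlap less by construction. The share of all genes was not computed for those fits, so no background stands beside it. The median of the members was -0.0825 to 0.0928 over the same fits. Directions turned for Ifi47 without LPS replicate 2 (-0.0785), LPS replicate 3 (-0.0306) or LPS plus 3A2 replicate 1 (-0.0989), for Igtp without LPS replicate 2 (-0.0193) or LPS plus 3A2 replicate 3 (-0.0656), and for Gbp3 without LPS replicate 3 (0.0116) or LPS plus 3A2 replicate 2 (0.0898). With 1 library left out, Gbp3 ran from -0.0995 to 0.0898, Ifi47 from -0.0989 to 0.16, Igtp from -0.0656 to 0.125, Gbp7 from 0.0126 to 0.117 and Gbp5 from -0.609 to -0.282. The unadjusted p of Irgm1 was under 0.05 in 8 of 13 alternatives, that of Gbp2 in 2 and that of Gbp5 in 1. The alternatives reuse the same libraries, so they are not independent of each other. Over all genes tested, 379 (DESeq2) to 1752 (without LPS plus 3A2 replicate 2) had such a p. The adjusted p of Irgm1 ran from 0.476 to 0.999. Depth limits Gbp5, Iigp1 and Tgtp1 most.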

Other observations

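The Gvin genes encode very large interferon-inducible GTPases related to the GBPs. Gvin2 was the most abundant of them, at 142, 155 and 136 CPM with LPS and 149, 135 and 163 CPM with LPS plus 3A2, a fold change of 1.03 (95% interval 0.921 to 1.15, edgeR adjusted p = 0.93). These values overlapped between the groups, and LPS plus 3A2 replicate 2 was again the lowest antibody library and replicate 3 the highest. The other 3 tested Gvin genes, named as pseudogenes, lay below no change. Gvin-ps1 stood at 0.911-fold (0.725 to 1.15), Gvin-ps2 at 0.879-fold (0.675 to 1.14) and Gvin-ps3 at 0.765-fold (0.555 to 1.05). Gvin-ps1 measured 23.9, 23.1 and 23.5 CPM with LPS and 24.5, 14.8 and 25.2 CPM with LPS plus 3A2. Only LPS plus 3A2 replicate 2 lay below its LPS libraries, and the other antibody libraries lay above them. Gvin-ps3 measured 6.3, 6.29 and 6.14 CPM with LPS and 5.19, 4.16 and 5.01 CPM with LPS plus 3A2. All 3 of its antibody libraries thus lay below its LPS libraries, as for 6.46% of all genes. Its edgeR p was 0.0977 unadjusted and 0.781 adjusted.

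Gvin1 was counted in only 2 of the 6 libraries, with 53 counts in LPS replicate 1, 13 in LPS plus 3A2 replicate 1 and 0 in the other 4. The pseudogene Gvin-ps4 had 18 counts in LPS plus 3A2 replicate 3 and 0 elsewhere. These genes are members of 1 multigene cluster, and how reads of its copies were divided was not tested.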
